A study of Mus musculus with 5 samples.

Results

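Genes of cholesterol synthesis and targets of the sterol regulatory element binding proteins (SREBPs) were followed in 5 clones of mouse cardiac progenitor cells. The list held 32 genes, chosen by name: 18 enzymes that build cholesterol from acetyl units, 5 regulators of SREBP, the sterol carrier Stard4 and 8 enzymes of fatty acid synthesis, desaturation and elongation. It was chosen with earlier results of these data known. Of these, 31 genes had 72 probe sets on the array, out of 18193 named genes; Acat2 was not analysed here. Total RNA of clones 11B, 1D, 20B, 30 and 42 was hybridised to Affymetrix expression arrays, 1 array per clone. The labels give the strain as C67BL/6, the tissue as left ventricle of adult mice aged 5 to 6 months, and the cells as c-kit+ cardiac progenitors that had been picked with an antibody to Sca-1. No genetic change and no treatment is named for any clone, and 1 growth protocol is given for all clones. Each clone was picked with cloning rings and then subcloned by dilution, so a difference between arrays is a difference between 2 lines, with no replicate culture behind it and no test possible.

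SREBP precursors sit in the membrane of the endoplasmic reticulum, held by the escort protein Scap and the anchor proteins Insig1 and Insig2 while sterols are plentiful. When sterols fall, Scap carries the precursor to the Golgi, where it is cleaved, and the released domain enters the nucleus and switches on its targets. The form encoded by Srebf2 acts mainly on cholesterol genes, and the main forms encoded by Srebf1 act mainly on fatty acid genes. Insig1 is itself a target, which closes a feedback loop.

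The promoters of 4 genes that stood high in clone 11B are shown because SREBP acts at such sites together with the factor NF-Y, which binds CCAAT boxes. Each line holds the 250 bases before the annotated start in RefSeq build GRCm38.p6, read along the strand of the gene. The capitals mark the core of a sterol regulatory element (searched as TCACNCCAC) and CCAAT boxes (CCAAT, or ATTGG where the box lies on the opposite strand).
Hmgcs1, chr13:119690101-119690350, plus strand: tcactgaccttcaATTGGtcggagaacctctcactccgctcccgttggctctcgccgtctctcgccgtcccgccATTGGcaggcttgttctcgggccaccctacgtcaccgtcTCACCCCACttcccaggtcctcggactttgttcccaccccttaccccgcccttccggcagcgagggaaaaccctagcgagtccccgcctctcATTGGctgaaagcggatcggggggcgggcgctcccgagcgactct
Insig1, chr5:28071162-28071411, plus strand: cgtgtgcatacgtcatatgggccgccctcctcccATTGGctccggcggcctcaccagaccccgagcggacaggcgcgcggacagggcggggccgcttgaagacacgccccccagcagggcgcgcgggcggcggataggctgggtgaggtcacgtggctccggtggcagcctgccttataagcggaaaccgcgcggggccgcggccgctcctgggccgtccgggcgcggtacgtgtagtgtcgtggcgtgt
Msmo1, chr8:64733579-64733828, minus strand: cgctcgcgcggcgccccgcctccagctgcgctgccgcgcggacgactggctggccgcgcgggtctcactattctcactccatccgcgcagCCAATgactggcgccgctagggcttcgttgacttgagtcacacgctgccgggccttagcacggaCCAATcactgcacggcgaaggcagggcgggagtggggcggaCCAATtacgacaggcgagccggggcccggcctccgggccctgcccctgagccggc
Elovl6, chr3:129532136-129532385, plus strand: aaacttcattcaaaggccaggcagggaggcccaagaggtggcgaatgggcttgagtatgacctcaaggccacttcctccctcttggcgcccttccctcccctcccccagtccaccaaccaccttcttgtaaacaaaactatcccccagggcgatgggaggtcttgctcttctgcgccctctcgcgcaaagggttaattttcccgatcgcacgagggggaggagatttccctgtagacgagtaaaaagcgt

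The sterol element core lay in the Hmgcs1 promoter, from 137 to 129 bases before the start, with CCAAT boxes on both sides of it. Insig1 had 1 CCAAT box, Msmo1 had 3 and Hmgcs1 had 3, and Elovl6 had neither motif in this window. Promoter sequences were found for 25 of the 32 listed genes, 33 promoters in all. A CCAAT box, on either strand, occurred in 20 of these 33 promoters (60.6%), and in 33.8% of the 32851 mouse promoters of the same length. The core TCACNCCAC occurred in 1 of the 33 (3.03%) and in 1.05% of all promoters. GC boxes (GGGCGG, either strand) occurred in 24 of the 33 (72.7%) and in 32.7% of all promoters, and the E-box CACGTG in 5 (15.2%) and in 6.02%. The GC content of the printed windows, which bears on such counts, was 72.8% in Insig1, 72.0% in Msmo1, 64.8% in Hmgcs1 and 56.4% in Elovl6. A match is a string of letters, not a binding site, and a missing match says only that these letters are not in the window.

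The deposited values are ratios, so they carry differences between clones and no expression level. As read from the values, the divisor was either the middle array of that probe set or, for dim probe sets, a floor, so a ratio of 1 is the middle clone or the floor. To be called measured, a probe set needed a middle ratio of exactly 1 or some clone above 1, and a span over the clones of more than 0.05 log2 units. Of the 72 probe sets, 32 were measured, and they covered 21 of the 31 genes, 15 of them on 1 probe set. Over the whole array, 51.9% of named genes were measured. A gene's value is the mean log2 ratio of its measured probe sets, and its deviation in a clone is the distance from the median of the 4 other clones. Over 6681 pairs of probe sets that share a gene, the deviations differed by 0.48 log2 units (SD), which gives an SD of 0.34 for 1 probe set. This is the only error available for a gene, and it covers neither culture nor RNA preparation.

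Most of the members that lay at least 0.5 log2 units above the other clones did so in clone 11B. Hmgcs1, Msmo1, Insig1, Scd2 and Elovl6 lay at least 0.5 log2 units (1.41-fold) above the median of the other clones there. These were 5 of the 21 measured members (23.8%), against 4.46% of all 9435 measured genes in clone 11B. The list was chosen with earlier results of these data known, so such shares describe it and are no independent support. Averaging every probe set of a gene, flat ones included, left Hmgcs1, Msmo1 and Insig1 and a share of 2.71% of all genes. No member lay at least 0.5 log2 units below the others in clone 11B, against 5.10% of the genes that had a probe set scaled to its middle array. In clone 11B 8 of the 21 members (38.1%) were the highest by more than 0.05 log2 units, against 15.4% of all genes. Among them Elovl6, Nsdhl and Stard4 were called measured only through their value in clone 11B. Their place among the highest thus follows largely from the filter, which was the same for all genes. Elovl6 also enters the counts at 0.5 and at 1 log2 unit. Clone 11B was the lowest for 2 (9.52%), against 11.1%. Insig1, Scd2 and Elovl6 lay at least 1 log2 unit (2-fold) above, 3 of 21 (14.3%), against 0.678% of all genes, and none lay as far below, against 0.879%. The median deviation of the members in clone 11B was 0.11 log2 units, against -0.0015 for all genes. Several members had a ratio in clone 11B tied with other clones, which holds this median near 0. The genes with a range of at least 1 log2 unit over the clones were Insig1, Msmo1, Scd2 and Elovl6, 4 of 21 (19.0%), against 13.0% of all genes. Without clone 11B 1 of 21 members reached that range, against 9.71% of all genes.

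**Figure D1:**
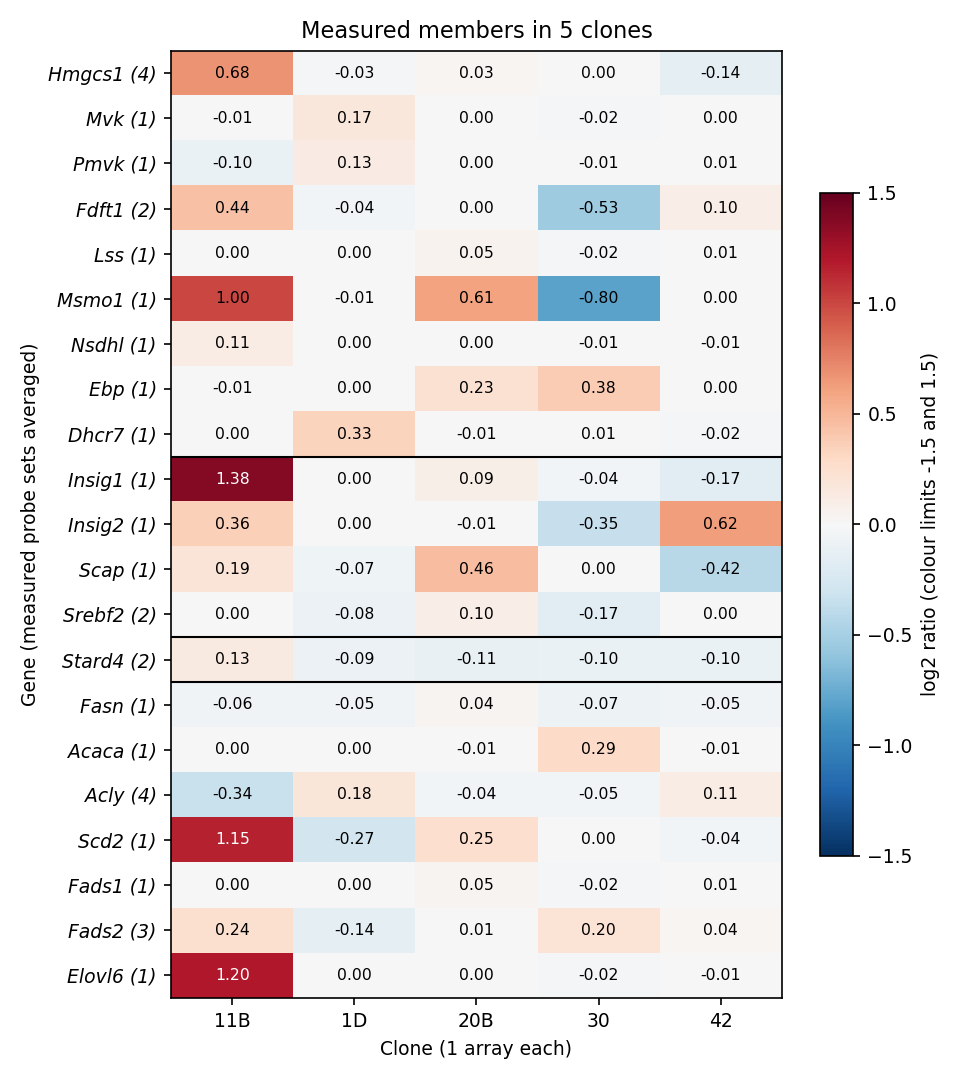
Log2 ratios of the 21 measured members (rows) in the 5 clones (columns, 1 array each), with the number of averaged probe sets in brackets and black lines between sterol enzymes, SREBP regulators, the sterol carrier and fatty acid enzymes. The column of clone 11B holds the highest values for Insig1 (1.38), Elovl6 (1.20), Scd2 (1.15), Msmo1 (0.996) and Hmgcs1 (0.68), while Acly (-0.34) is lowest there.

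**Figure D2:**
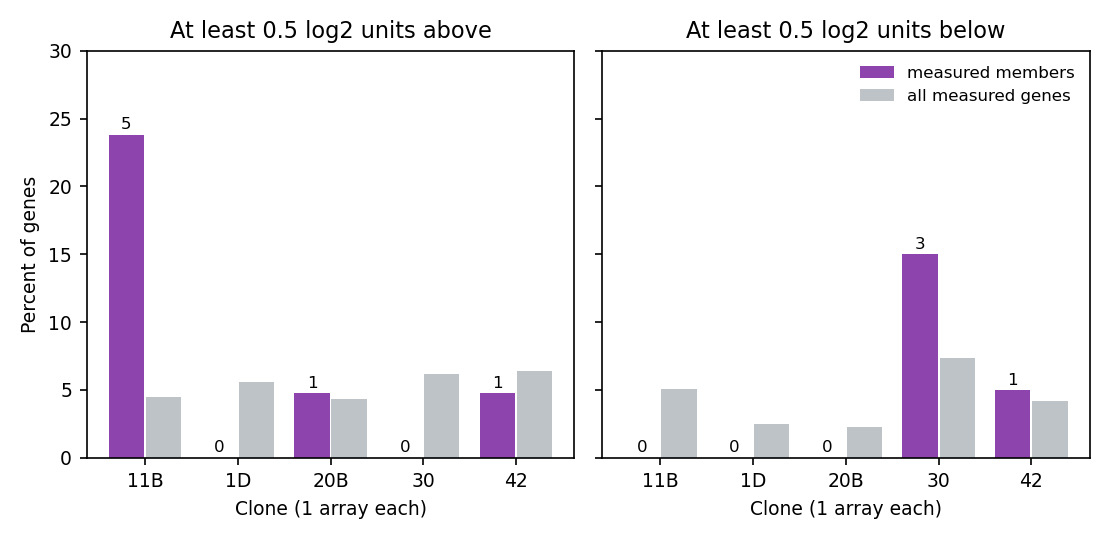
Percent of the measured members (purple, with their number above the bar) and of all measured genes (grey) that lay at least 0.5 log2 units above (left) or below (right) the median of the other clones, by clone. In clone 11B 23.8% of the members lay above, against 4.46% of all genes, and in clone 30 15.0% lay below, against 7.38% of genes. The count below in clone 30 was smaller under some alternatives and is no result about the members as a group.

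Clone 11B also differed from the others in the array's RNA controls. For Actb the deposited ratio of the 5′ probe set was divided by that of the 3′ probe set. The quotient was 0.597 in clone 11B and 0.743 to 1.08 in the other clones. The deposited ratios of the 18S probe sets were 0.411 to 0.555 in clone 11B, against 0.651 to 1.57. For Gapdh the same quotient was 0.924 in clone 11B and 1.00 to 1.16 elsewhere. Each value was already a ratio, so these numbers compare the clones and are not the 5′ to 3′ signal of an array. The hybridisation controls, 18 probe sets that carry array error alone, had a standard deviation of 0.08 log2 units. Whether RNA quality took part in the values of clone 11B was not tested. Since the RNA came from bulk cultures, more cells with a transcript and more transcript per cell cannot be told apart.

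At the entry of the pathway, Hmgcs1 encodes the synthase that joins acetyl units into HMG-CoA. On probe set 1433443_a_at its ratio was 2.46 in clone 11B, against 0.934 in clone 1D, 1.009 in clone 20B, 1.00 in clone 30 and 0.745 in clone 42. On probe set 1433445_x_at it was 2.212 in clone 11B and 0.954 to 1.048 in the others. Both probe sets thus put clone 11B more than 2-fold above every other clone, but 1433445_x_at is marked for cross-hybridisation. The remaining measured probe sets put it highest by less: 1433444_at had 1.165 in clone 11B and 0.974 to 1.039 elsewhere, and 1441536_at had 1.032 and 0.990 to 1.006. The fifth probe set was flat, between 0.548 and 0.552. The average over the 4 measured probe sets lay 0.69 log2 units above the others in clone 11B (1.62-fold). This distance was 1.35 on the probe set with the largest range, and 0.54 without the probe set marked for cross-hybridisation.

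The next measured steps of the mevalonate arm had smaller ranges. Mvk, mevalonate kinase, was highest in clone 1D at 1.123 and lay between 0.986 and 1.001 in the other clones. Pmvk, phosphomevalonate kinase, was also highest in clone 1D, at 1.091, and lowest in clone 11B, at 0.934. Both distances were smaller than the spread of 1 probe set. The Mvk ratios of clones 11B, 20B and 42 were found together, number for number, on 503 other probe sets, so their closeness is no measurement of Mvk.

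Fdft1, squalene synthase, commits the pathway to sterols, and its probe sets disagreed. On 1438322_x_at the ratio was 1.844 in clone 11B, against 0.952 in clone 1D, 1.00 in clone 20B, 0.515 in clone 30 and 1.037 in clone 42. On 1448130_at clone 11B had 0.998, clone 30 had 0.931 and clone 42 had 1.114, and clones 1D, 11B and 20B shared a level found on 1371 other probe sets. The average deviation was 0.46 in clone 11B and -0.58 in clone 30. Without probe sets marked for cross-hybridisation these became -0.01 and -0.11, so the distances of Fdft1 rest on 1438322_x_at.

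Msmo1, the sterol methyl oxidase that removes methyl groups at carbon 4, had the widest range of the sterol enzymes, 1.79 log2 units. Its ratio on 1423078_a_at was 1.995 in clone 11B, 0.996 in clone 1D, 1.524 in clone 20B, 0.575 in clone 30 and 1.00 in clone 42. Clones 11B and 20B lay above the middle and clone 30 below it. The deviations were 0.999 in clone 11B, 0.61 in clone 20B and -1.10 in clone 30, each larger than the spread of 1 probe set. In the remaining probe set, 1459627_at, no clone rose above the floor, with ratios of 0.964 to 0.999. With that probe set averaged in, the deviations of clones 11B and 30 became 0.52 and -0.54.

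The other measured enzymes after squalene had ranges under 0.5 log2 units. Ebp, the sterol isomerase, was highest in clone 30 at 1.301, followed by clone 20B at 1.173, with the other clones at 0.994 to 1.00. Dhcr7, the reductase of 7-dehydrocholesterol, was highest in clone 1D at 1.26, against 0.985 to 1.006. Nsdhl, which works with Msmo1 on the same methyl groups, reached 1.077 in clone 11B, against 0.992 to 1.003 in the others. Lss, lanosterol synthase, ranged over 0.06 log2 units, but its ratios in clones 1D, 11B and 30 stood together on 652 other probe sets and are no measurement of Lss. The median deviation of the 9 measured sterol enzymes in clone 11B was -0.0007 log2 units, the value of Dhcr7. It says little about the arm, since the ratios of Mvk, Lss, Ebp and Dhcr7 in clone 11B were tied with those of other clones.

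Of the 10 listed genes that had probe sets but were not measured, 8 were sterol enzymes: Mvd, Idi1, Fdps, Sqle, Cyp51, Tm7sf2, Hsd17b7 and Sc5d. Sqle, which makes the first oxygenated sterol precursor, had ratios of 0.726 to 0.736. Both probe sets of Idi1 were flat, at 0.925 to 0.941 and 0.644 to 0.649. These values lie under the floor, where a difference between clones could hardly be seen and where absence of the transcript is not shown. On 1423418_at Fdps, which makes farnesyl units, had 0.861 in clone 11B, 0.782 in clone 1D, 0.789 in clone 20B, 0.751 in clone 30 and 0.881 in clone 42. On 1422533_at Cyp51 had 1.00 in clone 20B and 0.753 to 0.768 in the others, and on 1434520_at Sc5d had 0.731 in clone 20B and 0.573 to 0.574 in the others. Mvd spanned 0.983 to 1.005, and no clone stood apart on either of its probe sets.

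Among the regulators, Insig1 had the largest deviation of any member. Its 1 probe set, 1454671_at, had a ratio of 2.607 in clone 11B, against 1.00 in clone 1D, 1.065 in clone 20B, 0.974 in clone 30 and 0.890 in clone 42. The deviation of clone 11B was 1.40 log2 units (2.64-fold), rank 20 from the top among 9435 genes, and the other clones lay close together. Insig2, the anchor protein that sterols regulate less through SREBP, followed another order. On 1417982_at it had 1.279 in clone 11B, 1.00 in clone 1D, 0.996 in clone 20B, 0.784 in clone 30 and 1.54 in clone 42. Its 2 other probe sets, 1417980_a_at and 1417981_at, were flat at 0.990 to 1.014. The deviation in clone 42, 0.63, fell to 0.21 with these averaged in.

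Scap, the escort of the SREBPs, had 1.142 in clone 11B, 0.954 in clone 1D, 1.376 in clone 20B, 1.00 in clone 30 and 0.750 in clone 42. Clone 42 lay lowest, with a deviation of -0.51, and clone 20B highest, with 0.49. Srebf2, the gene of the sterol-directed SREBP, stayed near the middle in clone 11B, at 0.998 on 1426744_at and 1.006 on 1452174_at. It was lowest in clone 30 on the first, at 0.793 against 0.998 to 1.004, and highest in clone 20B on the second, at 1.138 against 0.889 to 1.006. On the first probe set the 4 clones other than 30 shared a level found on 557 other probe sets. The 1 probe set of Srebf1 was not measured, with all 5 clones tied at 0.995 to 1.004. For the SREBP genes 1452174_at alone thus carried a value of its own for clone 11B, 1.006, tied with clones 30 and 42.

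Stard4, a carrier that moves cholesterol between membranes, was highest in clone 11B on all 3 probe sets, by small steps. The ratios were 1.144 in clone 11B and 0.857 to 0.882 elsewhere on 1429239_a_at, 1.048 and 0.996 to 1.002 on 1455011_at, and 0.916 and 0.857 to 0.867 on 1429240_at. The deviation over the 2 measured probe sets was 0.23, smaller than the SD of 1 probe set, but no spread was computed for a mean of 2.

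In the fatty acid arm, the desaturase Scd2 and the elongase Elovl6 were high in clone 11B. Scd2, which makes monounsaturated fatty acids outside the liver, had 2.224 in clone 11B on 1415822_at, against 0.828 in clone 1D, 1.192 in clone 20B, 1.00 in clone 30 and 0.975 in clone 42. Its deviation in clone 11B was 1.17 log2 units (2.25-fold), rank 42 from the top. The 2 other Scd2 probe sets were flat under the floor, at 0.628 to 0.634 and 0.491 to 0.496, and with them averaged in the deviation was 0.39. Elovl6, which lengthens palmitate to stearate, had 2.293 in clone 11B on 1417404_at, against 0.989 to 1.003 in the others. The deviation was 1.20 (2.30-fold, rank 39), and 0.40 with its flat probe sets averaged in. The Elovl6 ratios of clones 1D, 30 and 42 were also found together on 8 other probe sets, which leaves the size of the fold uncertain.

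**Figure D3:**
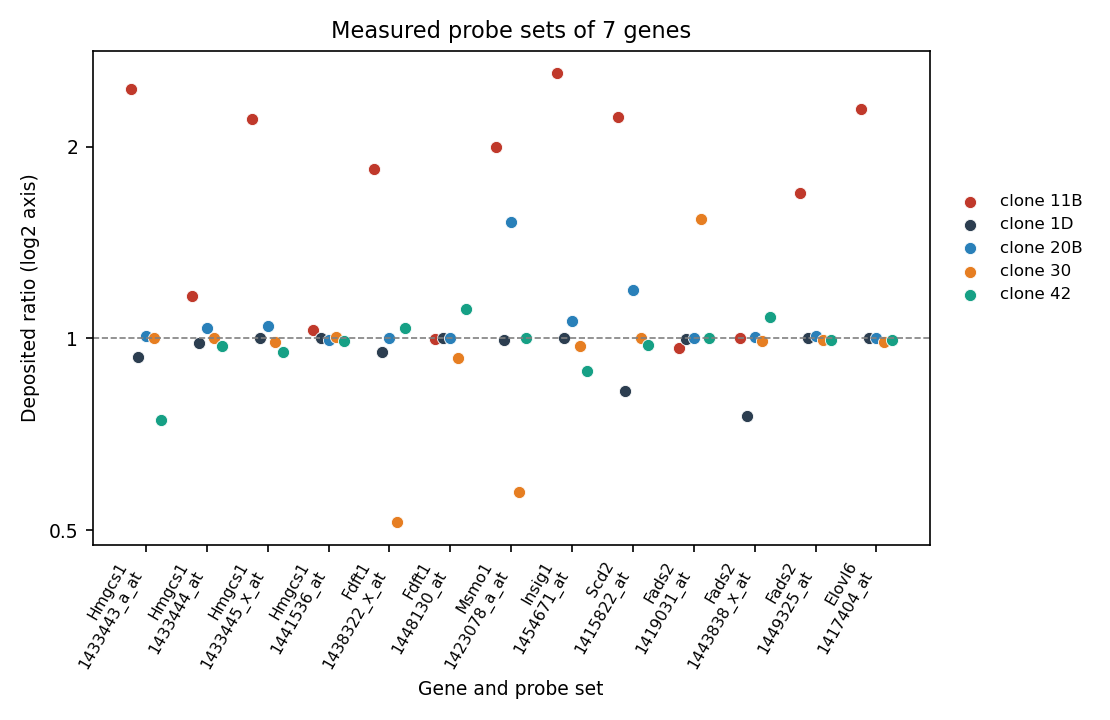
Deposited ratios (log2 axis) of every measured probe set of 7 genes, Fdft1 and Fads2 included because their probe sets disagree, with 1 point per clone and a dashed line at a ratio of 1. Clone 11B is the highest point on both leading Hmgcs1 probe sets (2.46 and 2.212), on Insig1 (2.607), Scd2 (2.224), Elovl6 (2.293) and Msmo1 (1.995), while clone 30 is lowest on Fdft1 1438322_x_at (0.515) and Msmo1 (0.575).

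Fads2, the delta-6 desaturase of polyunsaturated fatty acids, gave a different answer on each probe set. On 1449325_at it had 1.689 in clone 11B and 0.994 to 1.008 in the other clones. On 1419031_at it had 1.538 in clone 30 and 0.967 to 1.001 elsewhere, and on 1443838_x_at 0.755 in clone 1D and 0.991 to 1.081 elsewhere. On 1419031_at the ratios of clones 1D, 20B and 42 were also found together on 376 other probe sets. Each probe set thus set another clone apart. The averaged deviation in clone 11B was 0.22, smaller than the SD of 1 probe set, but no spread was computed for a mean of probe sets. Fads1, its delta-5 partner, ranged over 0.06 log2 units on the same shared level of clones 1D, 11B and 30 as Lss.

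Acly, ATP citrate lyase, which supplies acetyl units to both arms, lay lowest in clone 11B. On 1425326_at it had 0.581 in clone 11B, 1.638 in clone 1D, 1.00 in clone 20B, 0.856 in clone 30 and 1.282 in clone 42. On 1451666_at it had 0.714 in clone 11B and 0.971 to 1.037 in the others. The 2 other measured probe sets, both marked for cross-hybridisation, held clone 11B at 0.949 and 0.998. The second of these ratios belongs to a level that clones 1D, 11B and 20B shared on 1371 other probe sets, so it is no measurement of Acly and pulls the average toward 0. The deviation in clone 11B was -0.37, and -0.73 without probe sets marked for cross-hybridisation. Acly thus lay below the other clones in clone 11B, where Hmgcs1, Msmo1, Insig1, Scd2 and Elovl6 lay above them.

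Acaca, acetyl-CoA carboxylase, was highest in clone 30 at 1.224, against 0.995 to 1.002 in clones that shared a level. Fasn, the fatty acid synthase, rose above the floor in clone 20B alone, at 1.025, with 0.952 to 0.966 in the others. Scd1, the other stearoyl-CoA desaturase listed, stayed under the floor in every clone. On 1415964_at Scd1 had 0.542 in clone 1D and 0.803 to 0.812 in the other clones, and on 1415965_at it was flat at 0.637 to 0.644.

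A few members lay low in clone 30. Msmo1 (-1.10), Fdft1 (-0.58) and Insig2 (-0.53) lay at least 0.5 log2 units below the other clones there, 3 of the 20 members that had such a probe set (15.0%), against 7.38% of such genes. With every probe set averaged, with no filter on the range, or with quantile normalisation, the count was 1. The share of all genes was not recomputed for this count. A count this small and unstable is no result about the members as a group. Msmo1 lay at least 1 log2 unit below, 1 of 20 (5.00%), against 1.83% of genes, and none lay as far above, against 1.25%. The deviation in clone 30 was -0.35 for Insig2 without clone 11B or clone 42, and -0.80 for Msmo1 without clone 11B or clone 20B, which ends those calls at 0.5 and at 1 log2 unit. Clone 30 was the lowest by more than 0.05 log2 units for Fdft1, Msmo1, Insig2 and Srebf2, 4 of 21 (19.0%), against 14.4% of all genes, and the highest for 2 (9.52%), against 17.7%. No member lay 0.5 log2 units above the others in clone 30, against 6.19% of all genes. Set directly against clone 30, clone 11B was at least 1 log2 unit higher for 4 of the 21 members (19.0%), namely Msmo1, Insig1, Scd2 and Elovl6, against 2.35% of all genes. It was at least 1 log2 unit lower for none, against 2.00% of all genes. These 4 genes are the ones already named for their range, so this comparison adds no separate support. Elovl6 was called measured only through its value in clone 11B.

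In each of the remaining clones at most 1 member passed 0.5 log2 units in either direction. Counts this small, set beside the shares of all genes, are no result about the members as a group. In clone 20B Msmo1 lay at least 0.5 log2 units above the others, 1 of 21 (4.76%) against 4.30% of all genes, and no member lay below, against 2.28%. In clone 42 Insig2 lay above, 1 of 21 (4.76%) against 6.38%, and Scap below, 1 of 20 (5.00%) against 4.22%; the deviation of Scap was -0.42 without clone 11B or clone 20B, under the threshold. In clone 1D no member passed in either direction, against 5.57% above and 2.53% below. No member lay 1 log2 unit above or below in any of these clones, against 0.911% and 0.347% of genes in clone 1D, 0.519% and 0.197% in clone 20B, and 0.890% and 1.08% in clone 42. The members that were highest by more than 0.05 log2 units numbered 4 in clone 1D (19.0%), against 15.6% of all genes, 3 in clone 20B (14.3%), against 12.6%, and 1 in clone 42 (4.76%), against 18.0%. Those that were lowest numbered 2 in clone 1D (9.52%), against 8.99%, 0 in clone 20B, against 8.08%, and 3 in clone 42 (14.3%), against 10.7%.

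The genes around the pathway were read in the same way. Of 47 companion genes of sterol supply, SREBP processing, the LXR pathway and fatty acid supply, 38 had probe sets and 21 were measured. In clone 11B 1 of these 21 (4.76%) lay at least 0.5 log2 units above the others, against 4.46% of all genes, and 2 of 19 (10.5%) lay below, against 5.10%. Counts this small lie near the background and are no result about these genes as a group. The gene above was Slc25a1, the carrier that exports citrate from mitochondria, with 1.273 in clone 11B, 1.002 in clone 1D, 1.00 in clone 20B, 0.562 in clone 30 and 0.581 in clone 42. Its deviation was 0.74 log2 units in clone 11B, -0.83 in clone 30 and -0.78 in clone 42. The deviation in clone 11B was 0.35 without clone 30 or clone 42, under the threshold, and 1.13 without clone 1D or clone 20B. The genes below were Ggps1 and Cyb5r3.

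Ggps1 makes geranylgeranyl units, a branch that leaves the pathway before squalene. On 1419805_s_at it had 0.289 in clone 11B, 1.38 in clone 1D, 1.608 in clone 20B, 0.742 in clone 30 and 1.00 in clone 42. The deviation in clone 11B was -2.02 log2 units, the largest of any companion gene, on 1 probe set marked for cross-hybridisation, and with every probe set averaged it was -0.58. Cyb5r3, a reductase that passes electrons to sterol and fatty acid enzymes, had 0.385 in clone 11B on 1425329_a_at, against 0.954 to 1.97 in the others. On 1422186_s_at Cyb5r3 was lowest in clone 42, at 0.618, with 1.00 in clone 11B.

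Me1, malic enzyme, a source of NADPH for both arms, split the clones another way. Its ratio was 1.00 in clone 11B, 1.712 in clone 1D, 1.998 in clone 20B, 0.510 in clone 30 and 0.684 in clone 42. Clones 1D and 20B were high and clones 30 and 42 low, as Slc25a1 was also low in clones 30 and 42. Elovl5, an elongase of polyunsaturated fatty acids, had 1.189 in clone 30 and 0.583 in clone 42, against 0.829 to 0.833 in the others. All clones but 30 lie under the floor, and with such values set to the floor the deviation of clone 42, -0.51, became 0. The LXR pathway, whose receptors sense oxysterols, had 4 measured genes and SREBP processing 2, too few to read against shares of 2.28% to 7.38% of all genes per clone and direction.

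**Figure D4:**
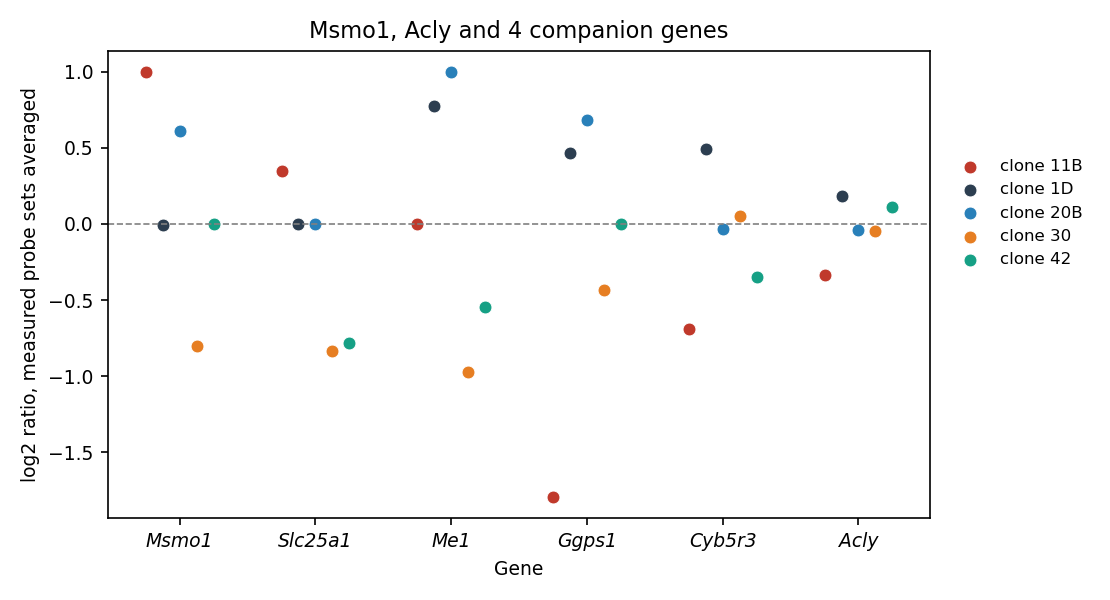
Log2 ratios (measured probe sets averaged) of 2 members, Msmo1 and Acly, and 4 companion genes in the 5 clones, with 1 point per clone and a dashed line at 0. Clone 11B is at the top for Msmo1 (0.996) and Slc25a1 (0.35) and at the bottom for Ggps1 (-1.79), Cyb5r3 (-0.69) and Acly (-0.34), while Slc25a1 and Me1 are low in clones 30 and 42.

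Markers of other cells and of growth were read on the same scale. None of 5 endothelial markers was measured, and of 5 leukocyte, 5 cardiomyocyte, 6 fibroblast, 4 smooth muscle and 6 adipocyte markers 1, 2, 2, 3 and 2 were. Of the leukocyte and adipocyte markers not measured, Ptprc (0.513 to 0.747) and Adipoq (0.481 to 0.485) stayed under the floor. Lyz2 (0.998 to 1.024) and Cidec (0.997 to 1.012), from the same lists, reached above 1 but spanned too little to be called measured. Kit was measured on 1 probe set, with 1.183 in clone 20B and 0.991 to 1.002 in the others, Pou5f1 stayed at 0.572 to 0.580, and Ly6a was not analysed here. Since these values hold no level, the labelled cell type could be neither borne out nor contradicted. In clone 11B the measured smooth muscle genes Tagln, Acta2 and Myh11 had deviations of 0.60, 0.16 and -0.0080, and the measured fibroblast genes Pdgfra and Col1a1 had 0.11 and -0.26. Pparg, the adipogenic regulator, had 0.752 in clone 11B and 0.309 in clone 42, against 1.00 to 1.402. Fabp4, the other measured adipocyte gene, had 0.998 in clone 11B, 1.457 in clone 30 and 0.586 in clone 42 on 1417023_a_at. There clones 1D, 11B and 20B shared a level found on 1371 other probe sets. On 1451263_a_at it had 0.997 in clone 11B and was highest in clone 30, at 1.072. The 6 measured proliferation genes had deviations in clone 11B between -0.78 (Rrm2) and 0.52 (Mcm2) log2 units, with a median of 0.10. Whether the cells they mark took part in the values of the pathway was not tested.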

How the data were processed

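Biotin-labelled total RNA of 5 clones was measured on 1 array each. The deposited values are linear ratios for 45101 probe sets, a unit inferred from the numbers and stated nowhere. Of these, 18926 had a middle value of exactly 1 and 26175 one under 1, with none higher, so the authors' ratio is taken to have the median over the arrays, or a floor, as its divisor. Per the submitters' processing notes RMA and GCRMA were used, with neither version nor order stated, and the genome build is not given in the sources used here. Probe sets were named from the platform annotation: 34945 with 1 gene symbol were used, and 932 with several were not. The Entrez numbers of 31 listed genes matched RefSeq (GRCm38.p6).

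Ratios were turned to log2 values, and measured probe sets were averaged per gene (9435 genes; Python 3.11.15, pandas 2.3.3, numpy 2.4.6). Clones were called tied within 0.02 log2 units. With 1 array per clone there are no residual degrees of freedom, so nothing was tested, and the number of arrays limits the precision. Shares are set beside those of all measured genes. The functions were tested on simulated ratios. Values were given for every measured gene of the list, and the other listed genes were named. Of the companion lists, genes with a range of at least 1 log2 unit were named. The listed genes and the companion lists were chosen with earlier results of these data known. Alternatives covered the averaging of probe sets, scaling, filters, the floor and leaving out each clone. Recomputing single-gene deviations under each of them was added after seeing the data.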

Additional observations from a re-analysis of the deposited data

How the results depend on the processing

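No paired analysis was possible because each clone has 1 array and the replicate numbers are only names. Across the alternatives, 302 of the 326 recomputed counts and medians of the members stayed near their main value, and 24 counts moved. Near meant within 1.5 times for a count and within 0.34 log2 units for a median. In the main setting the median deviations were at most 0.11 log2 units in size, so they could hardly fail this limit. All moves were among the counts, and the total makes those look more stable than they were. The number of members with a range of at least 1 log2 unit was 4, became 1 with every probe set averaged and 7 with the probe set of the largest range, and was 1 without clone 11B. The share of all genes moved the same way, from 13.0% to 7.22%, 21.2% and 9.71%. Members at least 0.5 log2 units above in clone 11B were 5, and 3 with every probe set averaged, against 4.46% and 2.71% of all genes. Those below were 0, and 1 with the probe set of the largest range and without cross-hybridising probe sets. Shares of all genes were not recomputed for this count or for those of the other clones. In clone 1D the count above was 1 with the probe set of the largest range, and the count below was 1 with quantile normalization and 2 without clone 30 or without clone 42. In clone 20B the count above was 0 with every probe set averaged, 2 with quantile normalization and 2 without clone 11B or without clone 30. In clone 30 the count below, 3 in the main setting, was 1 with every probe set averaged, with no filter on the range and with quantile normalization. In clone 42 the count above was 0 with every probe set averaged and with no filter on the range, and the count below was 0 with every probe set averaged and without clone 11B or clone 20B, and 2 without clone 1D or clone 30. Hmgcs1, Msmo1, Insig1, Scd2 and Elovl6 all lay above in clone 11B under each alternative that kept this clone, except that averaging every probe set left out Scd2 and Elovl6. Insig1 had a deviation in clone 11B that ranged from 1.38 to 1.54 log2 units over the settings that kept this clone. Of 376 single-gene deviations 39 moved, and 0 of those past 0.5 log2 units reversed. Values under the floor and tied clones limit what can be seen, and a value resting on 1 probe set of several, as for Scd2, Elovl6, Msmo1 and Fdft1, shrinks when the others are averaged in.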
